A study of Homo sapiens with 12 samples.

Results

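The effect of doxycycline on LS411N, a human colon cancer line that carries an inducible short hairpin RNA against MUC1, was taken from 6 of the 12 libraries of the series. They form 2 groups of 3, and of the 25673 genes listed for the line, 11281 had at least 1 TPM (transcript abundance scaled to a common library total) in at least 3 of the 6 libraries and were tested. The group in which the hairpin was switched on, labelled MUC1-C knockdown, received 500 ng/ml doxycycline. Its control received the vehicle, 0.1% DMSO, and carried the same hairpin construct without induction. The other 6 libraries come from LS411N-BR, a derivative kept in 4 µM BRAF inhibitor, with the same hairpin and the same pair of treatments. Both lines are labelled as puromycin resistant, and LS411N as not resistant to BRAF inhibitors. RNA came from cells grown in triplicate. The labels name no separate passages or days, so p-values measure the spread between these libraries, which may be technical. Every library with doxycycline also had the hairpin switched on, and no group carried a control hairpin. Effects of the drug, of the hairpin on other targets and of the loss of MUC1 therefore cannot be told apart. The labels give no DMSO level for the doxycycline libraries. Whether the line is a clone or a pool, the hairpin sequence and the length of treatment are not stated in the labels.

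MUC1 is a transmembrane mucin whose precursor is cleaved into an extracellular mucin subunit and a membrane-spanning subunit, MUC1-C, which signals inside the cell. The intestinal epithelium is renewed from stem cells at the crypt base under WNT signalling, and their progeny become absorptive colonocytes, goblet cells, enteroendocrine cells or tuft cells as they move towards the surface. Colon cancer cells keep parts of both programmes. Colon cancers with an activated BRAF kinase drive the RAF, MEK and ERK cascade, and ERK in turn raises phosphatases and Sprouty proteins that damp it. Doxycycline itself is a tetracycline antibiotic that can inhibit translation on mitochondrial ribosomes.

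Each library summed to 1000000 TPM. Vehicle replicate 3 had 15116 genes with a value above 0, the fewest, and the other libraries had 16870 to 17999. Read totals do not accompany these values, so the depth is unknown. Short structural RNAs took 51.6 to 56% of the TPM in the doxycycline libraries, and 58% and 57.9% in vehicle replicates 1 and 2 against 47.1% in vehicle replicate 3. The difference of the group means was -0.623 percentage points (exact two-sided permutation test, p = 1, where 3 against 3 cannot go below 0.1). Libraries were therefore rescaled by the median of ratios, with factors of 0.985 to 1.06 for doxycycline and 0.889, 0.903 and 1.16 for vehicle replicates 1, 2 and 3. After this the SD of log2 differences between a pair of libraries was 0.112 to 0.124 within the doxycycline group. It was 0.0982 between vehicle replicates 1 and 2, 0.231 and 0.233 between each of them and vehicle replicate 3, and 0.298 to 0.354 between the groups. Vehicle replicate 3 thus stood apart from its group by less than the groups stood apart from each other. All values below are rescaled TPM, and all fold changes are log2(rescaled TPM + 1), doxycycline over vehicle, which understates the change of genes with few TPM. A gene was called, and is said to have risen or fallen, at a limma p-value under 0.05 after Benjamini-Hochberg adjustment over all tested genes.

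MUC1 lies on chromosome 1 from 155185824 to 155192915 (GRCh38.p14). Its transcript stood at 0.931, 0.777 and 0.981 TPM in the doxycycline libraries, against 5.22, 6.76 and 3.91 TPM in the vehicle libraries. Every doxycycline library lay below every vehicle library, and the vehicle libraries spread more. The means were 0.897 ± 0.106 TPM with doxycycline and 5.29 ± 1.42 TPM with vehicle (SD, n = 3 each), a change of -83.1% with a log2 fold change of -1.71 ± 0.15 SE (limma, adjusted p = 8.0e-05). Of the 3 other mucins tested, MUC20, a membrane-bound mucin, rose, with 3.61 ± 0.0215 TPM in doxycycline and 2.34 ± 0.111 TPM in vehicle libraries, and 2 were not called. A further 10 listed mucins did not reach the filter. The highest of them, the goblet cell mucin MUC2, had 0.188, 0.124 and 0.132 TPM with doxycycline, against 0.428, 0.564 and 0.347 TPM with vehicle.

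Of the 11281 genes tested, 2127 rose and 1787 fell with doxycycline, which is 18.9% and 15.8% of the genes. Most of these changes were small. Among the genes that rose, 1652 differed by less than 1.5-fold in their group means, 146 by at least 2-fold and 25 by at least 4-fold. Among those that fell the numbers were 1449, 96 and 9. Protein-coding genes made up 2002 of the rises and 1678 of the falls. On TPM as deposited, without rescaling, 1100 genes rose and 387 fell, so that the share of calls that were higher was 74% against 54.3% after rescaling. Of the calls made as deposited, 1032 and 380 were made in the same direction after rescaling, and none turned round. The median over all tested genes was 0.01 after rescaling and 0.08 before it. Without doxycycline replicate 2, the calls were 1413 and 1140. In bulk RNA, fewer cells of a kind and less RNA per cell cannot be told apart.

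**Figure D1:**
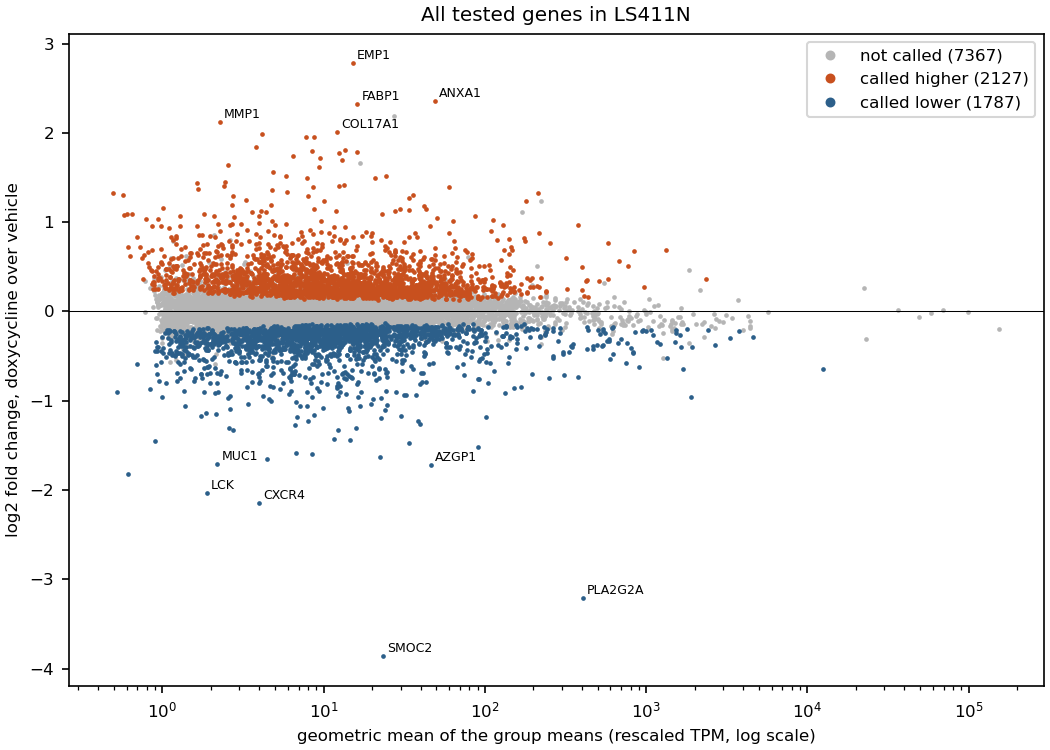
Each point is a tested gene in LS411N, with the geometric mean of its group means in rescaled TPM (log scale) on the x axis and its log2 fold change, doxycycline over vehicle, on the y axis. The 2127 genes called higher and 1787 called lower lie mostly within 1 unit of 0, and EMP1 and SMOC2 are the extremes of the labelled genes.

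The 12 largest rises and the 12 largest falls described next were taken on the log2(rescaled TPM + 1) scale, among called genes with separate groups and a mean of at least 5 TPM in the higher group. EMP1 had the largest rise on that scale, although by the ratio of group means MMP1, at 8.76, was above EMP1, at 7.94. EMP1 encodes a membrane protein with several spans that is found at epithelial surfaces and was listed here with absorptive colonocyte genes. EMP1 stood at 42.3, 43.5 and 42.6 TPM in doxycycline libraries, against 5.39, 5.55 and 5.21 TPM in vehicle libraries. The spread within each group was small (log2 fold change 2.78 ± 0.05 SE, adjusted p = 2.1e-08). ANXA1, an annexin that binds membranes in the presence of calcium and limits inflammation, had 115, 103 and 119 TPM in doxycycline libraries, against 20.1, 21.2 and 22 TPM in vehicle libraries. That is a log2 fold change of 2.36 ± 0.06 SE (adjusted p = 3.0e-07).

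The bases before the RefSeq start sites of these 2 genes (GRCh38.p14) are shown because they are the DNA upstream of the largest rises. The stretches end where the first annotated exon of the gene begins. Searched on both strands were AP-1 TGANTCA, TCF/LEF CTTTGA, CDX TTTATNG, the motif of GATA factors, which is AGATAA, ETS CCGGAAG, KLF/SP GGGCGGG, NRF2 TGACNNNGC, the TATA box, which is TATAAA, and HNF4 CAAAGTCCA, and matches are in capitals. EMP1 is read on the plus strand at chr12:13196476-13196715 and ANXA1 on the plus strand at chr9:73151615-73151756.
EMP1: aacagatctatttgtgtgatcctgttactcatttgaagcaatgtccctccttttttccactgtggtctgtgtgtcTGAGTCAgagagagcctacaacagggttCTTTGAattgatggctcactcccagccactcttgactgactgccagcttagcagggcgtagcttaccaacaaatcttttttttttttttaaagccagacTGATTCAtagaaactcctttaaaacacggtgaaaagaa
ANXA1: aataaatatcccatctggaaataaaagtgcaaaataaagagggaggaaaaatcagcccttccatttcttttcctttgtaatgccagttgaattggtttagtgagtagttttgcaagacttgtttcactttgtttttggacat
The EMP1 stretch held the AP-1 letters at 2 places and the TCF/LEF letters at 1. Over all RefSeq promoters cut to the same window, 6.45% held the AP-1 letters and 10.9% the TCF/LEF letters. The ANXA1 stretch held none of the motifs searched. A match describes these letters only, and binding was not measured.

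FABP1, which carries fatty acids inside enterocytes and colonocytes, had 40.5, 33.3 and 40.2 TPM in doxycycline libraries, against 5.87, 6.6 and 8.04 TPM in vehicle libraries (2.32 ± 0.11 SE, adjusted p = 3.0e-06). KRT20, a keratin of the upper crypt, had 17.3, 15.7 and 17.4 TPM with doxycycline, against 3.18, 3.38 and 4.34 TPM with vehicle (1.95 ± 0.09 SE, adjusted p = 3.0e-06). For both genes replicate 3 was the highest of the vehicle libraries. MMP1, an interstitial collagenase, averaged 6.67 ± 0.391 TPM in doxycycline and 0.762 ± 0.0122 TPM in vehicle libraries, and COL17A1, a collagen of hemidesmosomes, 25.8 ± 1.45 TPM with doxycycline and 5.63 ± 0.229 TPM with vehicle. The elastase inhibitor PI3 averaged 18.6 ± 2.34 TPM with doxycycline and 4.06 ± 0.436 TPM with vehicle. RAB27B, a GTPase that docks secretory vesicles, averaged 9.9 ± 0.429 TPM with doxycycline and 1.75 ± 0.185 TPM with vehicle, and PKIB, an inhibitor of protein kinase A, 8.58 ± 0.386 TPM with doxycycline and 1.68 ± 0.323 TPM with vehicle. The remaining 3 of the 12 largest rises were the long noncoding RNA LINC01133, the membrane-raft protein MALL and the adhesion protein CEACAM6, with log2 fold changes of 1.81, 1.8 and 1.79. The adjusted p-values of these genes ran up to 4.6e-06.

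SMOC2, a secreted matricellular protein that marks crypt-base stem cells, had the largest fall on the log2(rescaled TPM + 1) scale. By the ratio of group means AQP1, which did not reach 5 TPM, fell further, at 0.039 against 0.059 for SMOC2. SMOC2 stood at 5.54, 5.43 and 6.09 TPM in doxycycline libraries, against 94.9, 104.8 and 89.3 TPM in vehicle libraries. That is a log2 fold change of -3.86 ± 0.07 SE (adjusted p = 2.1e-08). PLA2G2A, a secreted phospholipase made by Paneth and goblet cells, was the most abundant of the 12 genes with the largest falls. It had 141, 132 and 126 TPM with doxycycline, against 1242, 1359 and 1112 TPM with vehicle (-3.21 ± 0.08 SE, adjusted p = 2.6e-07).

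The stretches before the RefSeq start sites of the 2 genes are given for comparison with those of the rises, cut in the same way. SMOC2 is read on the plus strand at chr6:168440934-168441150 and PLA2G2A on the minus strand at chr1:19979744-19979909. The PLA2G2A window lies inside the full span of the gene (chromosome 1, 19975431 to 19980434), which has a start further upstream.
SMOC2: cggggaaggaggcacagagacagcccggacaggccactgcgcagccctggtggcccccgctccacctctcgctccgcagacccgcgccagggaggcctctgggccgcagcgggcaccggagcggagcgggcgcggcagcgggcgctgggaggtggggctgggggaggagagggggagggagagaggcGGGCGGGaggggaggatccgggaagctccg
PLA2G2A: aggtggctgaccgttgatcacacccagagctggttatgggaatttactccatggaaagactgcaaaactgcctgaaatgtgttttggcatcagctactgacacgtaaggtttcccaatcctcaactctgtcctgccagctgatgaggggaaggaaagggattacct
The SMOC2 stretch held the KLF/SP letters once, as did 27.6% of all promoters cut to that window. The PLA2G2A stretch held none of the motifs searched.

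CXCR4, a chemokine receptor, had 1.65, 1.4 and 1.51 TPM in doxycycline libraries, against 11.2, 10.3 and 9.03 TPM in vehicle libraries (-2.15 ± 0.08 SE, adjusted p = 1.2e-06). LCK, a SRC-family kinase best known from T cells that is also expressed in some colon cancers, had 0.615, 0.626 and 0.609 TPM with doxycycline, against 5.5, 6.08 and 5.26 TPM with vehicle (-2.03 ± 0.07 SE, adjusted p = 7.3e-07). AZGP1, a secreted lipid-mobilising glycoprotein, averaged 25.2 ± 2.94 TPM in doxycycline and 84.6 ± 3.91 TPM in vehicle libraries. MYB, a transcription factor of crypt progenitors, averaged 12.4 ± 0.878 TPM with doxycycline and 40.3 ± 1.32 TPM with vehicle, and OLFM4, a crypt-base glycoprotein, 3.57 ± 0.348 TPM with doxycycline and 12.7 ± 1.08 TPM with vehicle. APP, the amyloid precursor protein, averaged 53.2 ± 2.6 TPM with doxycycline and 155 ± 2.5 TPM with vehicle, and RGMB, a BMP co-receptor, 19.8 ± 0.331 TPM with doxycycline and 57 ± 2.61 TPM with vehicle. TNFRSF11B, a decoy receptor for RANK ligand and TRAIL, and KIAA1324, an endosome and lysosome associated membrane protein, had log2 fold changes of -1.65 and -1.6. MUC1 itself completes the 12 falls.

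**Figure D2:**
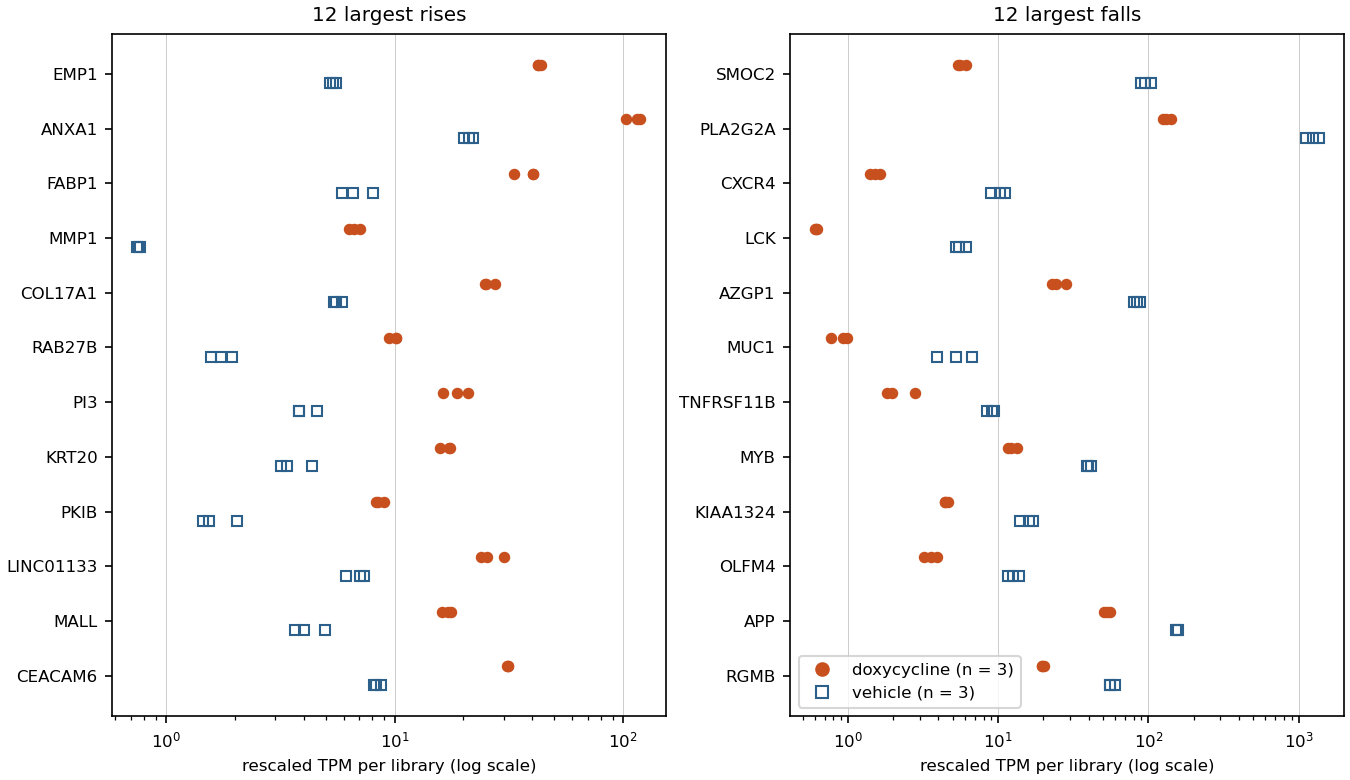
Rescaled TPM (log scale, x axis) of each of 3 doxycycline libraries (filled circles, upper row of each gene) and 3 vehicle libraries (open squares, lower row) for the 12 largest rises (left) and falls (right). The genes were chosen to have separate groups, and SMOC2 shows the widest gap of the 24, with 5.69 TPM on average in doxycycline and 96.4 TPM in vehicle libraries.

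The genes were then read in 53 lists of known function. Lists and members were chosen with earlier results of these data known, and some hold the largest changes described above. Their counts stand beside the 18.9% and 15.8% of all genes that rose and fell. Calls over all 11281 tested genes moved with the setting too. With 1 library left out, rises ranged from 1413 to 2830 and falls from 1140 to 2499. As deposited they numbered 1100 and 387. Absorptive colonocyte genes rose in 13 of 18 tested members, with a median log2 fold change of 0.82. Besides EMP1, FABP1, KRT20 and CEACAM6, the tetraspanin TSPAN1 averaged 10.1 ± 0.0486 TPM in doxycycline and 3.41 ± 0.0733 TPM in vehicle libraries, and the carcinoembryonic antigen CEACAM5 53.5 ± 1.8 TPM with doxycycline and 21.7 ± 0.665 TPM with vehicle. GUCA2A, which encodes guanylin, and the carbonic anhydrase CA2, both chosen after their values were seen, had log2 fold changes of 1.16 and 0.84. The 3 members that fell were SELENBP1, SLC26A2 and TMEM171, all by less than 0.4 on the log2 scale. None of the 3 was called by limma as deposited (1 fell at an unadjusted p under 0.05), without the TPM filter, without doxycycline replicate 1 or without vehicle replicate 1. The other 7 listed members were below the filter, among them the mature colonocyte genes CA1, CA4, AQP8 and MS4A12 and the chloride transporter SLC26A3, the highest of these 5 at 0.124 TPM in any library.

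Crypt-base stem cell genes moved mostly the other way: 14 of 18 tested members fell and 2 rose, with a median of -0.74. EPHB3, a receptor that positions cells in the crypt, had 17.3, 17 and 16.4 TPM in doxycycline libraries, against 35, 37.1 and 36.1 TPM in vehicle libraries (-1.05 ± 0.05 SE, adjusted p = 2.3e-06). Its relative EPHB2 averaged 9.06 ± 0.416 TPM with doxycycline and 17.8 ± 1.17 TPM with vehicle. The stem cell transcription factor ASCL2 had 19.7, 18.9 and 18.5 TPM with doxycycline, against 34.6, 33.9 and 26.1 TPM with vehicle, and SOX9 53.7, 52.2 and 55.1 TPM with doxycycline against 87.8, 94.4 and 69.6 TPM with vehicle. For both factors the groups were separate and vehicle replicate 3 was the lowest of its group. LRIG1, a growth factor receptor inhibitor of stem cells, averaged 16 ± 0.556 TPM with doxycycline and 32.3 ± 2.34 TPM with vehicle. ASCL2, SOX9 and LRIG1 were chosen after their values were seen.

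The receptor LGR5, the best known marker of these stem cells, did not fall. It had 22.1, 25.9 and 24.4 TPM in doxycycline libraries, against 19.2, 19.8 and 21.2 TPM in vehicle libraries, a rise of 0.25 ± 0.07 SE (adjusted p = 0.019). That call was lost as deposited, without the TPM filter, and without doxycycline replicate 2 or 3 or vehicle replicate 1 or 2 in turn. CD44, an adhesion receptor of stem and cancer cells chosen after its values were seen, rose to 139.7 ± 1.17 TPM in doxycycline libraries, against 110.5 ± 2.3 TPM in vehicle libraries. RNF43 and ZNRF3, the ubiquitin ligases that remove WNT receptors, were not called. As deposited, 12 members fell and limma called 0 higher, LGR5 and CD44 included (2 rose at an unadjusted p under 0.05).

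WNT targets and TCF factors split, with 4 of 15 up and 5 down and a median of -0.13. The cyclin CCND1 rose to 97.3 ± 1.61 TPM with doxycycline, against 61 ± 4.96 TPM with vehicle, and MYC to 78.7 ± 1.95 TPM with doxycycline, against 56.5 ± 4.77 TPM with vehicle. The feedback inhibitors AXIN2 and NKD1 fell, by 0.28 and 0.73 on the log2 scale, as did the co-receptor TDGF1, with 2.79 ± 0.306 TPM in doxycycline and 6.31 ± 0.516 TPM in vehicle libraries. CTNNB1, which encodes beta-catenin, was 71.2 ± 2.23 TPM with doxycycline and 97.2 ± 1.82 TPM with vehicle, a call lost in 1 of the 14 alternative settings, TPM as deposited. Counts in this list moved, with 2 up without doxycycline replicate 2 or 3, 8 down without vehicle replicate 3 and 2 down as deposited.

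**Figure D3:**
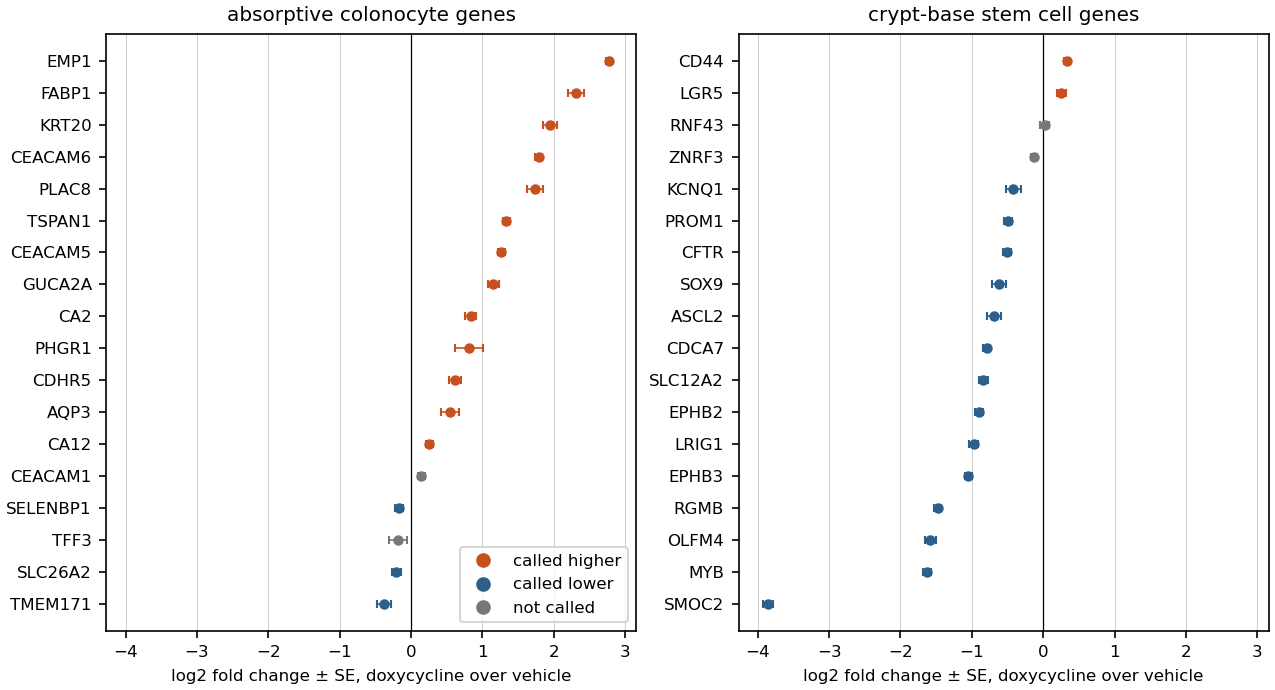
Log2 fold change with its SE, doxycycline over vehicle (x axis), of the tested absorptive colonocyte genes (left, 18 genes) and crypt-base stem cell genes (right, 18 genes). Colonocyte genes reach 2.78 at EMP1 and 13 of them rose, while 14 stem cell genes fell, down to -3.86 at SMOC2, with LGR5 and CD44 on the other side of 0.

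Keratins, S100 proteins, annexins and brush border genes were called higher far more often than lower. All 6 tested simple epithelial keratins rose (median 0.7), led after KRT20 by KRT19, with 346, 348 and 319.9 TPM in doxycycline libraries, against 130, 126 and 147 TPM in vehicle libraries. All 9 tested S100 proteins, small calcium-binding proteins, rose as well (median 0.6). S100A6 had 1715, 1675 and 1678 TPM with doxycycline, against 1059, 1050 and 1045 TPM with vehicle, and S100P 774, 713 and 779 TPM with doxycycline against 451, 475 and 407 TPM with vehicle. Of 11 annexins 10 rose (median 0.34), 6 of them as deposited, and ANXA6 fell, with 2.85 ± 0.198 TPM in doxycycline and 5.43 ± 0.47 TPM in vehicle libraries. Microvillus and brush border genes rose in 9 of 16 members (median 0.38). The peptidase DPP4 had 34.5, 33.7 and 33.9 TPM with doxycycline, against 13.4, 14.8 and 18.5 TPM with vehicle, and EZR, which encodes ezrin and ties actin to the membrane, 175, 166 and 167 TPM with doxycycline against 119, 118 and 121 TPM with vehicle. Villin, VIL1, was not called, at 84.3 ± 1.72 TPM with doxycycline and 77.5 ± 3.86 TPM with vehicle.

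Of hemidesmosome, laminin-332 and integrin genes 10 of 16 rose and 2 fell, 1 as deposited (median 0.34). LAMA3, a laminin-332 chain, averaged 3.37 ± 0.0835 TPM in doxycycline and 1.62 ± 0.0859 TPM in vehicle libraries, and the collagen receptor subunit ITGA2 29.7 ± 0.55 TPM with doxycycline and 21.4 ± 1.14 TPM with vehicle. ITGA6, the most abundant member, fell to 284 ± 9.99 TPM with doxycycline, against 390 ± 8.37 TPM with vehicle. Its partner ITGB4 was not called, at 34.9 ± 3.27 TPM with doxycycline and 30.3 ± 1.93 TPM with vehicle, but gained a call in 2 of 14 alternatives. In the matrix metalloproteinase and urokinase list 7 of 11 rose and 2 fell (median 0.3), and limma called 0 lower as deposited, also at an unadjusted p under 0.05. The metalloproteinase MMP7 had 7.06, 5.66 and 7.19 TPM with doxycycline, against 2.18, 2.25 and 3.09 TPM with vehicle, and the urokinase receptor PLAUR averaged 16 ± 0.802 TPM with doxycycline and 8.46 ± 0.419 TPM with vehicle. Epithelial protease inhibitors rose in 9 of 14 members (median 0.29) and the other 5 were not called. SERPINB5 averaged 63.3 ± 3.11 TPM with doxycycline and 27.4 ± 1.16 TPM with vehicle, and SLPI, a leukocyte protease inhibitor, 127 ± 6.05 TPM with doxycycline and 59.9 ± 5.05 TPM with vehicle.

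Cadherins and desmosomes had 7 of 15 up and 3 down (median 0.16), with the intestinal cadherin CDH17 at 151 ± 4.95 TPM in doxycycline and 80.1 ± 8.73 TPM in vehicle libraries. As deposited limma called 0 of this list lower, with 1 at an unadjusted p under 0.05. E-cadherin, CDH1, was not called, at 86.5 ± 1.81 TPM with doxycycline and 80.4 ± 6.28 TPM with vehicle. Claudins and tight junctions had 9 of 17 up and 3 down (median 0.2), but 4 up as deposited, where none was called lower (1 at an unadjusted p under 0.05). Without doxycycline replicate 2 or 3 the claudin list had 1 member down.

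Among secretory genes, 8 of 14 goblet, tuft and enteroendocrine genes rose and 1 fell (median 0.43), with 4 lower when no TPM filter was set and the fall not called as deposited by limma, where 1 was lower at an unadjusted p under 0.05. KLF4, a transcription factor of goblet cells, had 50.9, 52.1 and 49 TPM in doxycycline libraries, against 21.6, 23.8 and 22 TPM in vehicle libraries (1.14 ± 0.05 SE, adjusted p = 2.7e-06). The disulfide isomerase AGR2 averaged 831 ± 37.4 TPM with doxycycline and 562 ± 42.2 TPM with vehicle, and the trefoil peptide TFF1 20.6 ± 2.33 TPM with doxycycline and 11.1 ± 1.37 TPM with vehicle. CREB3L1, a membrane-bound transcription factor of the secretory pathway, fell to 4.43 ± 0.207 TPM with doxycycline, against 6.32 ± 0.423 TPM with vehicle. ATOH1, the transcription factor that commits cells to the secretory lineage, did not reach the filter, with 0.194, 0.042 and 0.0387 TPM in doxycycline libraries, against 0.225, 0.766 and 0.696 TPM in vehicle libraries. NEUROG3, RETNLB, TRPM5 and AVIL of the list were below it too, at no more than 0.675 TPM in any library. They were not tested and were chosen after their values were seen. Mucin O-glycosylation enzymes rose in 12 of 25 members and fell in 4 (median 0.17). GCNT3, which branches core O-glycans, had 15.7, 15.1 and 13.8 TPM with doxycycline, against 4.67, 5.04 and 5.33 TPM with vehicle, and GALNT5, which starts O-glycans, averaged 7.3 ± 0.16 TPM with doxycycline and 3.12 ± 0.231 TPM with vehicle. C1GALT1, the core 1 synthase, was not called, at 9.01 ± 0.622 TPM with doxycycline and 9.37 ± 0.677 TPM with vehicle, and its fold change changed sign as deposited. The 4 falls were 1 as deposited, and 1 or 2 without any single library other than vehicle replicate 3. Of 6 galectins, LGALS3 rose, with 270.1, 274 and 279.5 TPM with doxycycline, against 114, 113 and 122 TPM with vehicle. LGALS2 fell, at 1.4 ± 0.405 TPM with doxycycline and 2.69 ± 0.806 TPM with vehicle, but not without doxycycline replicate 2 or 3 or vehicle replicate 1.

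Signalling genes changed in both directions. Of 21 receptor tyrosine kinases 8 fell and 3 rose (median -0.1), and 4 fell as deposited. FGFR4, a receptor for fibroblast growth factors, had 9.59, 10.6 and 9.2 TPM in doxycycline libraries, against 20.6, 20 and 17.7 TPM in vehicle libraries, and EPHB4 averaged 25.8 ± 1.13 TPM with doxycycline and 38.1 ± 0.274 TPM with vehicle. EGFR was not called, at 11.6 ± 0.376 TPM with doxycycline and 11.2 ± 1.17 TPM with vehicle. Its ligand AREG rose, with 311, 293 and 281 TPM with doxycycline, against 166, 175 and 142 TPM with vehicle (0.87 ± 0.08 SE, adjusted p = 1.2e-04). TGFA, another EGFR ligand, averaged 6.26 ± 0.221 TPM with doxycycline and 4.23 ± 0.428 TPM with vehicle and rose as well.

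From RAS to ERK, 8 of 22 kinases and adaptors rose and 2 fell (median 0.12). The GTPase activators NF1 and RASA1 fell, by 0.33 and 0.45 on the log2 scale. BRAF was not called, at 4.21, 4.43 and 4.53 TPM with doxycycline, against 3.8, 4.05 and 4.02 TPM with vehicle. The count of rises was 3 as deposited, 4 without doxycycline replicate 2 or 3 and 5 without vehicle replicate 1, and the 2 falls were not called as deposited.

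Of 22 ERK feedback and output genes 10 rose and 2 fell (median 0.08). DUSP5, a nuclear ERK phosphatase, had 37.6, 36.1 and 33.1 TPM with doxycycline, against 12.9, 12.9 and 10.3 TPM with vehicle (1.5 ± 0.09 SE, adjusted p = 9.8e-06). DUSP6, the cytoplasmic ERK phosphatase, differed little, at 32.5 ± 1.65 TPM with doxycycline and 28.4 ± 1.47 TPM with vehicle (0.19, adjusted p = 0.032), a call lost in 5 of the 14 alternatives. The ERK pathway inhibitor SPRY2 fell, with 5.49, 6.12 and 5.97 TPM with doxycycline, against 12.2, 12.8 and 12 TPM with vehicle, as did the potassium channel KCNN4 (-0.97 ± 0.08 SE). Without vehicle replicate 3 the list had 6 falls.

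Among SRC-family kinases and VAV, 3 of 9 rose and 4 fell (median -0.08), 1 of the falls as deposited. Besides LCK, the exchange factor VAV2 and CSK, the kinase that inhibits SRC kinases, fell, by 0.38 and 0.25 on the log2 scale. FRK rose to 35.8 ± 0.407 TPM with doxycycline, against 23.7 ± 0.463 TPM with vehicle, and SRC was not called, at 10.8 ± 1.09 TPM with doxycycline and 11.5 ± 1.24 TPM with vehicle. AP-1 and immediate early factors rose in 5 of 14 members (median 0.23), among them JUNB, with 30.7 ± 1.46 TPM with doxycycline and 18.7 ± 2.37 TPM with vehicle. FOS was not called, at 4.51 ± 0.238 TPM with doxycycline and 3.45 ± 0.831 TPM with vehicle, but gained a call in 4 of its 13 alternatives. In the list 3 members rose without doxycycline replicate 2 or 3. No member was called lower by limma (1 at an unadjusted p under 0.05), but 2 were without vehicle replicate 3. Of 14 ETS factors 3 rose and 3 fell, 1 of the falls as deposited and without doxycycline replicate 2 or 3, and 5 fell without vehicle replicate 3. ETS2 fell to 69.8 ± 0.649 TPM in doxycycline libraries, against 119 ± 1.27 TPM in vehicle libraries, while ETS1, ELF1 and ELF3 of the same family rose, by 0.29 to 0.47. Of 10 Kruppel-like factors 6 rose and 1 fell, with 3 up as deposited, without the TPM filter and without doxycycline replicate 2 or 3. KLF6 rose beside KLF4, to 25.3 ± 1.2 TPM with doxycycline, against 13.2 ± 0.879 TPM with vehicle. ID1, an inhibitor of differentiation raised by BMP signals, rose to 161 ± 6.56 TPM with doxycycline, against 79.2 ± 10.5 TPM with vehicle, with 7 of 18 BMP and TGF-beta genes up and 1, the receptor TGFBR1, down. That fall was not called as deposited, and 2 fell without vehicle replicate 3. Of YAP and TEAD targets 5 of 16 rose and 2 fell, and of RAB GTPases 9 of 25 rose and 3 fell. As deposited 4 RAB genes rose and limma called 0 lower, with 2 at an unadjusted p under 0.05. MYOF, a membrane repair protein, had 101, 97.8 and 94 TPM with doxycycline, against 34.7, 35.2 and 40.2 TPM with vehicle, whereas the coactivator WWTR1 fell, by 0.57 on the log2 scale.

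**Figure D4:**
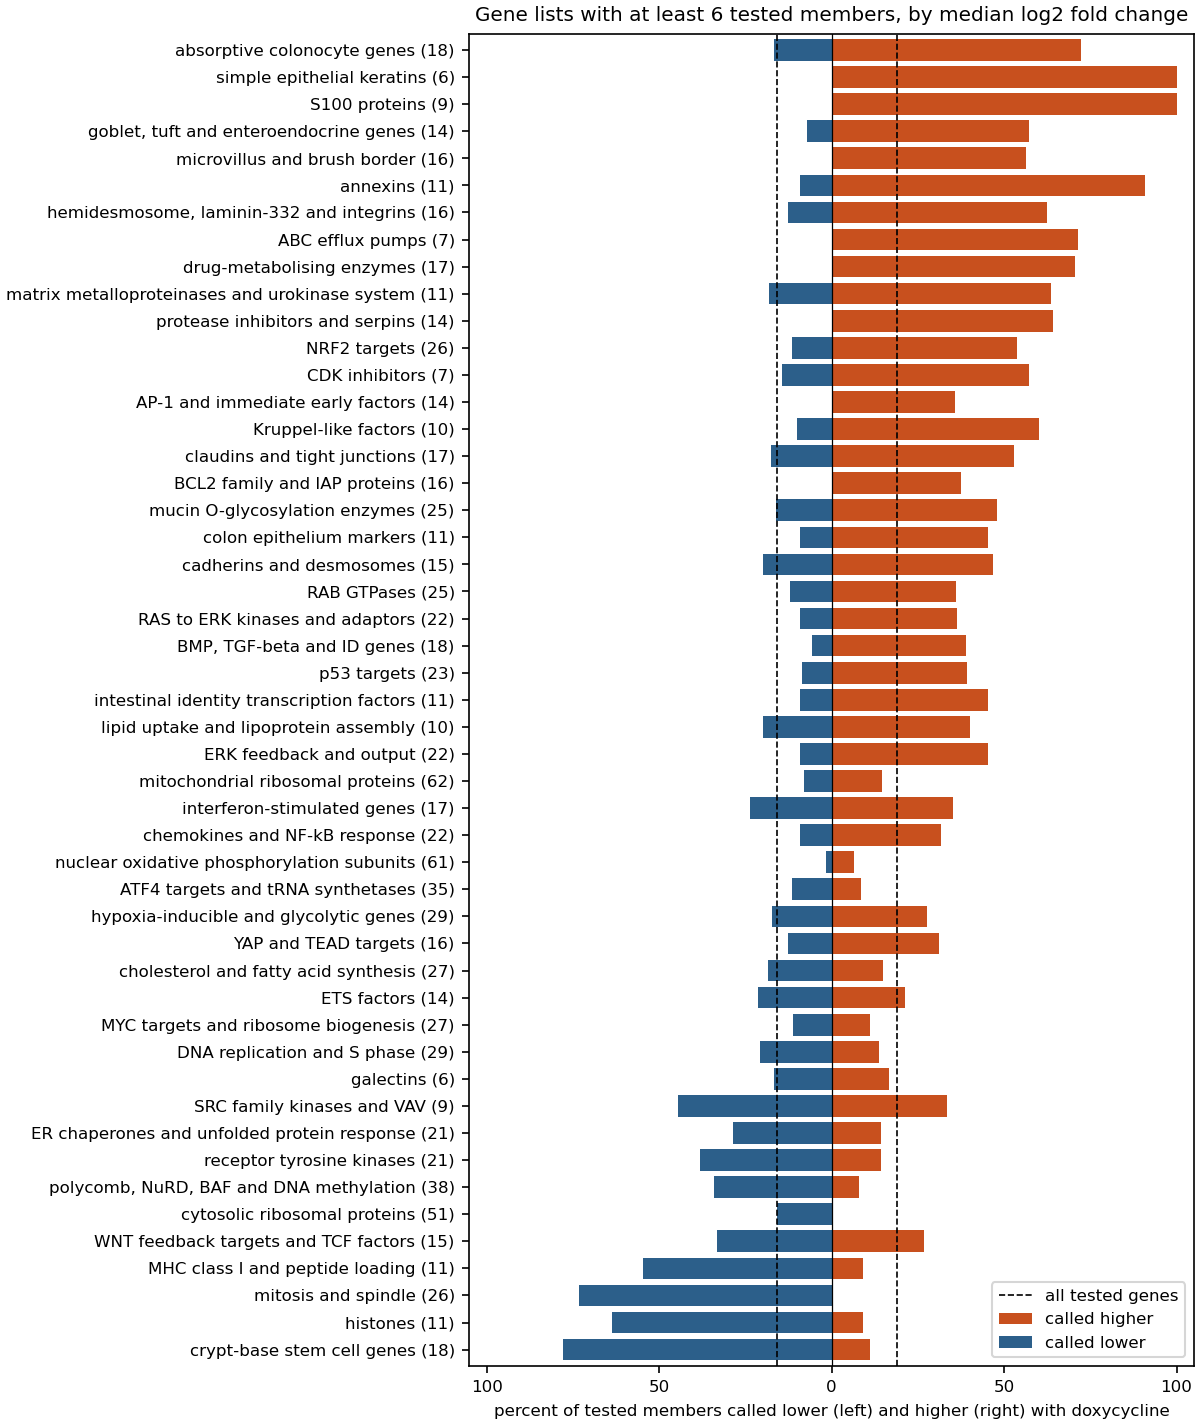
Percent of tested members called lower (left bars) and higher (right bars) with doxycycline in each gene list with at least 6 tested members (number in brackets), ordered by median log2 fold change, with dashed lines at the 18.9% and 15.8% of all tested genes. Colonocyte genes, keratins and S100 proteins stand at the top, and mitosis genes, histones and crypt-base stem cell genes at the bottom.

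Inhibitors of cyclin-dependent kinases were higher in 4 of 7 members. CDKN1A, the p21 inhibitor of cyclin-dependent kinases, had 21.9, 21.1 and 20.3 TPM in doxycycline libraries, against 7.4, 7.97 and 6.78 TPM in vehicle libraries (1.4 ± 0.06 SE, adjusted p = 2.5e-06). CDKN1B and CDKN2B rose too, by 0.36 and 0.6 on the log2 scale. CDKN3, a phosphatase of the cyclin-dependent kinases, fell by 0.3 on the log2 scale, a call lost as deposited. Of p53 targets 9 of 23 rose and 2 fell (median 0.1), and 4 fell without vehicle replicate 3. The stress cytokine GDF15 averaged 177 ± 9.93 TPM with doxycycline and 113 ± 0.867 TPM with vehicle. SESN1 fell, to 2.96 ± 0.288 TPM with doxycycline, against 5.37 ± 0.49 TPM with vehicle, and MDM2 was not called, at 35.4 ± 2.1 TPM with doxycycline and 32.9 ± 1.54 TPM with vehicle.

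Mitosis and spindle genes were lower by small amounts. After rescaling 19 of 26 fell (median -0.24), and between 14 and 21 did when 1 library was left out. ECT2, a cytokinesis exchange factor, had 79.6, 84.3 and 88.8 TPM in doxycycline libraries, against 118, 114 and 120 TPM in vehicle libraries (-0.47 ± 0.05 SE, adjusted p = 3.1e-04). TOP2A, the topoisomerase of dividing cells, had 91.1, 86.8 and 90.1 TPM with doxycycline, against 118, 122 and 120 TPM with vehicle. CDK1 was not called, at 62.9 ± 3.99 TPM with doxycycline and 63.5 ± 1.59 TPM with vehicle. On TPM as deposited limma called 0 of the 26 lower, with 5 lower at an unadjusted p under 0.05 and a median of -0.17. Over all 11281 tested genes, falls numbered 1787 after rescaling and 387 as deposited, and the medians were 0.01 and 0.08. Why fewer mitosis genes were called as deposited was not tested. Histones had 7 of 11 lower after rescaling and 1 as deposited (medians -0.25 and -0.18). For DNA replication genes, 4 of 29 were up and 6 down after rescaling, and as deposited limma called 0 in either direction, with 4 up and 0 down at an unadjusted p under 0.05. The replication counts were 2 up without doxycycline replicate 1, 1 up and 2 down without doxycycline replicate 2, 2 up and 2 down without doxycycline replicate 3 and 3 down without vehicle replicate 1.

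No drug-metabolising enzyme or ABC efflux pump was called lower (0 also at an unadjusted p under 0.05, limma). Of the enzymes 12 of 17 were up (median 0.32). The drug-oxidising CYP3A5 had 16, 16.2 and 16.3 TPM in doxycycline libraries, against 6.15, 6.41 and 6.33 TPM in vehicle libraries (1.24 ± 0.05 SE, adjusted p = 1.1e-06). Of 7 ABC efflux pumps 5 rose (median 0.33), 3 of them as deposited. ABCC2 had 8.63, 8.69 and 8 TPM with doxycycline, against 2.98, 2.49 and 2.6 TPM with vehicle, and ABCG2 averaged 19.2 ± 1.13 TPM with doxycycline and 9.49 ± 0.298 TPM with vehicle. ABCB1, the P-glycoprotein pump, did not reach the filter, with at most 0.162 TPM. Among NRF2 targets 14 of 26 rose and 3 fell (median 0.28), with 1 down without doxycycline replicate 1 or 2 and, by limma, 0 as deposited (1 at an unadjusted p under 0.05). The carbonyl reductase AKR1B10 had 3.68, 3.26 and 3.74 TPM with doxycycline, against 0.73, 0.777 and 0.756 TPM with vehicle, and the autophagy receptor SQSTM1 averaged 232 ± 11.7 TPM with doxycycline and 135 ± 5.77 TPM with vehicle. NFE2L2, which encodes NRF2, fell, with 35.4, 36.3 and 36.1 TPM with doxycycline, against 49.9, 49.6 and 51.5 TPM with vehicle, and its target NQO1 was not called, at 230 ± 5.36 TPM with doxycycline and 239 ± 25.6 TPM with vehicle.

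Immune response genes did not move as a block. Of 17 interferon-stimulated genes 6 rose and 4 fell, 2 of them as deposited (median 0.08). OAS1, a sensor of double-stranded RNA, had 14.7, 14.2 and 13.5 TPM in doxycycline libraries, against 4.24, 4.3 and 4.54 TPM in vehicle libraries (1.5 ± 0.05 SE, adjusted p = 1.0e-06), and OAS3 averaged 6.96 ± 0.185 TPM with doxycycline and 3.77 ± 0.319 TPM with vehicle. BST2 and IFI6 fell, by 0.9 and 0.79 on the log2 scale. In the chemokine and NF-kB list 7 of 22 rose and 2 fell (median 0.06), with CXCL1 up by 0.55 and CXCR4 down the most. The falls numbered 1 as deposited and without doxycycline replicate 1 or vehicle replicate 1. CXCL8 was not called, at 4.5 ± 1.04 TPM with doxycycline and 5.02 ± 0.878 TPM with vehicle. Of 11 MHC class I and peptide-loading genes 6 fell and B2M rose (median -0.19). As deposited limma called none of the 6, with 1 lower at an unadjusted p under 0.05, and 2 or 3 fell without any single doxycycline library. B2M was not called without doxycycline replicate 3. Reads of near-identical HLA genes can be shared among them. BCL2 family and IAP genes had 6 of 16 up (median 0.17), with BIRC3 at 5.52 ± 0.331 TPM with doxycycline and 2.83 ± 0.394 TPM with vehicle, but 2 or 3 as deposited and without any single doxycycline library.

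Hypoxia-inducible and glycolytic genes had 8 of 29 up, 3 as deposited, and 5 down (median 0.02). EPAS1, the hypoxia factor HIF-2 alpha, averaged 15 ± 0.141 TPM in doxycycline and 7.73 ± 0.395 TPM in vehicle libraries. Within glycolysis PGAM1 fell, with 25.2, 24.8 and 25.4 TPM with doxycycline, against 63.1, 60.8 and 60.7 TPM with vehicle (-1.26 ± 0.04 SE, adjusted p = 7.4e-07), as did LDHA, to 193 ± 10.9 TPM with doxycycline, against 326 ± 1.55 TPM with vehicle. PGK1 and PKM, both chosen after their values were seen, rose, by 0.22 and 0.34. Of 62 mitochondrial ribosomal proteins 9 rose and 5 fell (median 0.08), under the share of all genes in each direction. MRPL17 had 15.1, 14.1 and 14.9 TPM with doxycycline, against 23.9, 24 and 25.1 TPM with vehicle. Of 61 nuclear oxidative phosphorylation subunits 4 rose and 1 fell (median 0.04). As deposited the ribosomal list had 1 up and 2 down, and limma called 0 of the subunits, with 3 up at an unadjusted p under 0.05. Left-out libraries gave between 2 up, without doxycycline replicate 3, and 17 up, without vehicle replicate 3, for the ribosomal list. For the subunits they gave between 0 up, without doxycycline replicate 2, and 10 up, without vehicle replicate 3. Rises over all 11281 tested genes numbered 1413 without doxycycline replicate 2, 1460 without doxycycline replicate 3 and 2830 without vehicle replicate 3.

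Among ATF4 targets and tRNA synthetases 3 of 35 rose and 4 fell (median 0.03), with 1 up as deposited and without any single doxycycline library and 8 up without vehicle replicate 3. The falls numbered 2 as deposited and without doxycycline replicate 1 or 3 or vehicle replicate 2, and 1 without doxycycline replicate 2. WARS, the tryptophan tRNA synthetase, had 21.5, 19.1 and 18.8 TPM in doxycycline libraries, against 43.4, 48.8 and 44.9 TPM in vehicle libraries, and ATF4 was not called, at 384 ± 22.8 TPM with doxycycline and 372 ± 25.8 TPM with vehicle. Of 51 cytosolic ribosomal proteins 8 fell (median -0.12), near the 15.8% of all tested genes that fell. As deposited limma called 0 of them, with 1 lower at an unadjusted p under 0.05. Left-out libraries gave between 2 falls, without doxycycline replicate 2 or 3, and 18, without vehicle replicate 3. Falls over all 11281 tested genes numbered 1140 without doxycycline replicate 2, 1196 without doxycycline replicate 3 and 2499 without vehicle replicate 3. Processed pseudogenes of the cytosolic ribosomal family can share reads. Of 21 endoplasmic reticulum chaperone genes 3 rose and 6 fell, of 27 cholesterol and fatty acid genes 4 rose and 5 fell, and of 27 MYC target and ribosome biogenesis genes 3 rose and 3 fell. Their medians lay between -0.09 and 0. As deposited limma called 0 of these 3 lists lower, with 1, 0 and 0 lower at an unadjusted p under 0.05. The chaperone rises numbered 1 without doxycycline replicate 3 or vehicle replicate 1 or 2 and, by limma, 0 as deposited (2 at an unadjusted p under 0.05). The cholesterol list had 2 rises as deposited, and 1 to 3 falls without any single library other than vehicle replicate 3, and the MYC list 5 without vehicle replicate 3.

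Chromatin genes leaned lower, with 13 of 38 polycomb, NuRD, BAF and DNA methylation genes down and 3 up (median -0.12). The DNA methyltransferase DNMT3A averaged 3.18 ± 0.157 TPM in doxycycline and 5.07 ± 0.185 TPM in vehicle libraries, the BAF subunit ARID2 8.7 ± 0.0953 TPM with doxycycline and 12.7 ± 0.759 TPM with vehicle, and MBD3 of NuRD 9.62 ± 0.333 TPM with doxycycline and 13.9 ± 0.321 TPM with vehicle. EZH2, the polycomb methyltransferase, was not called, at 26.6 ± 1.89 TPM with doxycycline and 26.4 ± 1.19 TPM with vehicle. As deposited 3 fell, and 8 did without doxycycline replicate 2 or 3 or vehicle replicate 2, against 20 without vehicle replicate 3. The rises numbered 1 as deposited and without doxycycline replicate 2 or vehicle replicate 2. Of 11 intestinal identity factors 5 rose and 1 fell, with 2 up as deposited, 3 up without doxycycline replicate 2 or 3 or vehicle replicate 2, and 3 down without vehicle replicate 3. CDX2 rose to 16.6 ± 1.04 TPM with doxycycline, against 12.1 ± 0.545 TPM with vehicle, and FOXA2 fell, by 0.39 on the log2 scale, a call lost as deposited.

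The libraries carried the markers of colon epithelium, with 11 of the 12 listed tested. CDX1, an intestinal homeobox factor, did not reach the filter. Of the others 5 rose, and EPCAM, an epithelial adhesion molecule, was not called, at 488 ± 6.94 TPM in doxycycline and 499.5 ± 26.1 TPM in vehicle libraries. GPA33, an intestinal surface antigen, fell to 6.34 ± 0.13 TPM with doxycycline, against 10.4 ± 0.396 TPM with vehicle. Fibroblast and endothelial markers were at or near 0: the 10 summed to 0.604 to 0.802 TPM in doxycycline libraries and 0.351 to 0.542 TPM in vehicle libraries, with CDH5 at 0 in all. Of 10 immune markers, PTPRC, CD3E, CD3D, CD79A, CD14 and CSF1R stayed under 0.15 TPM, MS4A1 and NKG7 were at 0, and 2 were tested. CD68, a lysosomal protein, rose, with 19.2, 17.6 and 17.5 TPM with doxycycline, against 8.03, 8.05 and 7.15 TPM with vehicle. LYZ, lysozyme, fell, with 1333, 1328 and 1394 TPM with doxycycline, against 2551, 2678 and 2652 TPM with vehicle. The 10 markers summed to 1345 to 1412 TPM in doxycycline libraries and 2559 to 2686 TPM in vehicle libraries, nearly all of it LYZ.

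The same contrast in LS411N-BR was fitted apart, on a separate table with its own vehicle libraries. There 3671 of 11322 genes rose and 3623 fell, which is 32.4% and 32.0% of them. MUC1 stood at 0.62, 0.373 and 0.411 TPM in doxycycline libraries of LS411N-BR, against 4.08, 4.05 and 4.66 TPM in its vehicle libraries (-1.84 ± 0.08 SE, adjusted p = 4.2e-08). All 12 genes with the largest rises in LS411N were also called higher in LS411N-BR. EMP1 averaged 102 TPM with doxycycline and 15.7 TPM with vehicle there, KRT20 134 TPM with doxycycline and 26.4 TPM with vehicle, and PKIB 23.6 TPM with doxycycline and 1.99 TPM with vehicle. Of the 12 largest falls, 10 passed the filter in LS411N-BR and 9 of these, MUC1 included, were called lower, SMOC2 among them with 0.722 TPM with doxycycline and 32.6 TPM with vehicle. TNFRSF11B was not called in LS411N-BR, with 1.95, 2.14 and 2.33 TPM in doxycycline libraries, against 2.14, 2.2 and 2.34 TPM in vehicle libraries (-0.04, adjusted p = 0.58). CXCR4 and LCK did not reach the filter there. Whether any effect differs between the lines was not tested.

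**Figure D5:**
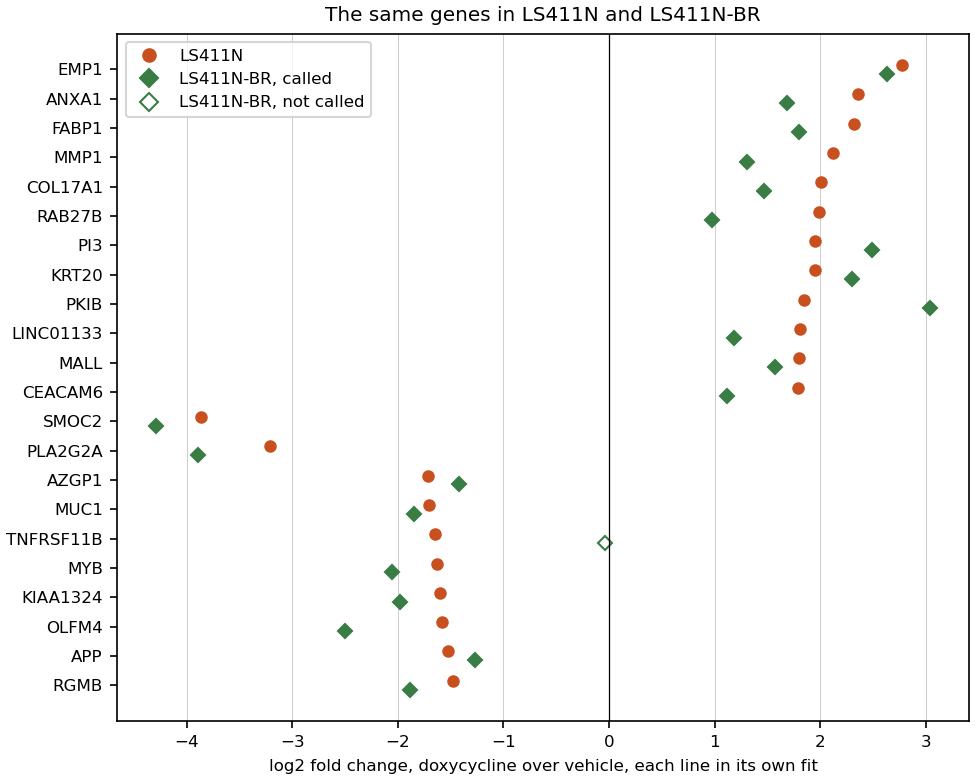
Log2 fold change, doxycycline over vehicle (x axis), of the 22 genes with the largest changes in LS411N that were also tested in LS411N-BR (LS411N circles, LS411N-BR diamonds, filled where called), each line in its own fit. TNFRSF11B, open at -0.04 in LS411N-BR, is the one gene not called there.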

How the data were processed

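RNA was sequenced from 3 doxycycline and 3 vehicle libraries of LS411N. The authors deposited TPM values for each line in a separate table of genes. STAR, DESeq2 and GRCh38 are named, without role or order, in the submitters' processing notes, and the library kit marks strand, per the labels' protocols. From the deposited TPM, libraries were rescaled by the median of ratios, genes reaching 1 TPM in 3 or more libraries were kept, log2(TPM + 1) was fitted with limma 3.58.1 in R 4.3.3, and p-values were adjusted over all tested genes. TPM keeps no read depth, so no counting interval is given. Members and lists were chosen with earlier results of these data known. Named genes are MUC1; the 12 largest log2 fold changes in each direction among called genes, short RNAs aside, with separate groups and a mean of 5 TPM or more in the higher one; up to 4 called members of each list with the smallest adjusted p; and the first member of each list. Tested genes named outside this rule were chosen after their values were seen, as were those below the filter. Same-numbered libraries 1, 2 and 3 showed correlations of their deviations from the group means of 0.026, 0.019 and 0.195. Only the last was above the limit of 0.1, and the numbers were not taken as pairs. The steps after the TPM filter were run on simulated data with noise drawn independently for each gene. A library that stands apart, like vehicle replicate 3, was not simulated. Promoters came from RefSeq (GRCh38.p14). Some genes that the naming rule covers are not reported here.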

Additional observations from a re-analysis of the deposited data

How the results depend on the processing

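On TPM as deposited, without rescaling, 1100 genes rose and 387 fell. Called list members, each gene counted once across the lists, numbered 230 against 449 after rescaling. The cause of this drop was not tested. With 1 library left out, rises ranged from 1413 without doxycycline replicate 2 to 2830 without vehicle replicate 3, falls from 1140 to 2499 and called list members from 329 to 552. Upper-quartile rescaling, a pseudocount of 0.1 TPM, no trend and robust moderation gave 2088 to 2127 rises and 1772 to 1842 falls among the same 11281 genes. Without the filter 1917 of 19742 genes rose and 1602 fell, of which 1650 and 1340 were also called in the main fit. With a filter of 5 TPM 1710 of 8051 genes rose and 1332 fell. The replicate block gave 2190 and 1794, of which 2000 and 1662 were also called in the main fit. Pairing by number thus moved the totals little but changed some of the genes called. The fold change of MUC1 ran from -2.41 with a pseudocount of 0.1 TPM to -1.56 without vehicle replicate 2 and was called wherever it was fitted. It has no value under the filter of 5 TPM. The count of 21 genes called alike in LS411N-BR did not move in any alternative run there. The difference in short-RNA share ran from -4.23 to 1.2 percentage points with 1 library left out, alternatives chosen after seeing the data. Of 209 other called genes named by the rule, 144 kept their call in all 14 alternatives, 65 lost it in at least 1 and 0 changed sign with a call. Of 17 uncalled ones, 7 gained a call somewhere: FOS in 4 settings, ITGB4 and KLF5 in 2, and VIL1, CDH1, EGFR and HMGCS1 in 1. A different 7 changed sign, all without a call. As deposited the log2 fold changes were 0.015 for C1GALT1, 0.058 for CDK1, 0.026 for NQO1 and 0.044 for EPCAM. With 1 library left out at a time, the log2 fold changes of these 7 genes lay between -0.103 and 0 for C1GALT1, -0.061 and 0.027 for CDK1, -0.258 and 0.017 for CXCL8 and -0.12 and 0.031 for NQO1. They lay between -0.013 and 0.08 for ATF4, -0.034 and 0.064 for EZH2 and -0.058 and 0.01 for EPCAM. Read depth is unknown, which limits what can be said of genes under 1 TPM, and with 3 libraries a group an exact permutation test cannot go below 0.1.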

Other observations

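Several changes of at least 4-fold lay outside the 12 largest in each direction, by rank or by level, and those given here were chosen after their values were seen. Among the rises, PLAC8, a small protein of epithelial and myeloid cells, averaged 12.9 ± 0.461 TPM in doxycycline and 3.21 ± 0.76 TPM in vehicle libraries (SD, n = 3 each). The ubiquitin ligase TRIM31 averaged 5 ± 0.0312 TPM with doxycycline and 1.2 ± 0.0496 TPM with vehicle, and CCDC68, a centriole protein, 5.64 ± 0.297 TPM with doxycycline and 1.13 ± 0.168 TPM with vehicle. SPRR1A, a precursor of the cornified envelope of squamous cells, averaged 1.9 ± 0.767 TPM with doxycycline and 0.157 ± 0.165 TPM with vehicle. It was at 0 in vehicle replicate 3, the library with the fewest genes above 0. POU2F3, the transcription factor that specifies tuft cells, averaged 1.92 ± 0.133 TPM with doxycycline and 0.448 ± 0.323 TPM with vehicle. Vehicle replicates 1, 2 and 3 had 0.678, 0.587 and 0.0785 TPM of POU2F3. Other tuft cell genes were below the filter and not tested. TRPM5 had 0.164, 0.127 and 0.0989 TPM with doxycycline, against 0.198, 0.227 and 0.304 TPM with vehicle. AVIL had 0.295, 0.247 and 0.3 TPM with doxycycline, against 0.404, 0.572 and 0.675 TPM with vehicle. DCLK1 had at most 0.0275 TPM. THRB, a thyroid hormone receptor, averaged 1.76 ± 0.0064 TPM with doxycycline and 0.348 ± 0.04 TPM with vehicle. Among the falls, the water channel AQP1 averaged 0.116 ± 0.0211 TPM in doxycycline and 2.97 ± 0.541 TPM in vehicle libraries (log2 fold change -1.82 ± 0.1 SE, limma adjusted p = 7.2e-06).

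Falls of at least 2-fold were also measured in the following genes, chosen after their values were seen. MAPKAPK2, a kinase downstream of p38, had 8.45, 8.63 and 8.37 TPM in doxycycline libraries, against 25.4, 24.4 and 24.6 TPM in vehicle libraries (-1.44 ± 0.045 SE, limma adjusted p = 6.3e-07). PSMB5, the proteasome subunit with chymotrypsin-like activity, had 23.2, 26 and 24.9 TPM with doxycycline, against 64.2, 58.3 and 55.1 TPM with vehicle. The ubiquitin-conjugating enzyme UBE2Q2 averaged 9.82 ± 0.202 TPM with doxycycline and 25.7 ± 1.48 TPM with vehicle. DARS, the aspartate tRNA synthetase, averaged 14.6 ± 0.641 TPM with doxycycline and 34.7 ± 0.348 TPM with vehicle. AIMP2, a scaffold of the multi-synthetase complex that holds it, averaged 16 ± 0.794 TPM with doxycycline and 35.6 ± 1.73 TPM with vehicle. SRP9 of the signal recognition particle averaged 67.1 ± 8.15 TPM with doxycycline and 154 ± 13.1 TPM with vehicle, and NUP43 of the nuclear pore 14.2 ± 0.218 TPM with doxycycline and 29.1 ± 1.42 TPM with vehicle.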
